A study of Mus musculus with 6 samples.

Results

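Amino acid transporters of 7 solute carrier (SLC) families were followed in mouse pre-B cells transformed by the oncogenic kinase BCR-ABL1, a model of Ph+ leukaemia of the B lineage. Members were chosen by name: every gene on the array whose only symbol begins with Slc1a, Slc3a, Slc6a, Slc7a, Slc36a, Slc38a or Slc43a and a number. This gave 64 of the 19938 named genes, 7 from SLC1, 2 from SLC3, 21 from SLC6, 16 from SLC7, 4 from SLC36, 11 from SLC38 and 3 from SLC43. The label fits most of them, but 2 (Slc7a6os and Slc6a19os) are opposite-strand genes that carry a transporter's name, Slc43a3 is known as a purine nucleobase transporter, and the SLC6 family also carries monoamines, GABA, taurine and creatine. In 14 of the 64 genes the mean log2 value over all arrays lay below the 25th percentile of all genes (7.35), and these dim genes were kept.

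Transporters set how much of each amino acid enters a cell and its lysosomes. Light chains such as LAT1 (Slc7a5) exchange large neutral amino acids once paired with the heavy chain CD98 (Slc3a2), whereas sodium-coupled carriers of SLC1 and SLC38 build up the glutamine and small neutral amino acids that such exchangers spend. Supply is sensed at the lysosome by mTORC1, and shortage is sensed by the kinase GCN2, which raises the transcription factor ATF4 and with it the genes of several transporters and biosynthetic enzymes. Lymphocytes that divide are known to depend on LAT1, CD98 and the glutamine carriers.

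Cells on all 6 arrays were C57BL/6, carried Inpp5d fl/fl alleles and received 0.5 µM 4OH-Tamoxifen for 2 days before RNA was taken from puromycin-resistant cells. On 3 arrays (labelled Cre-ERT2) they carried PMIP-CRE-ERT2, a vector with a tamoxifen-activated Cre recombinase, and on 3 arrays (ERT2 control) they carried PMIP-ERT2, without the recombinase. Inpp5d encodes SHIP1, a phosphatase that opposes PI3K signalling, so the design asked which transcripts differ once Cre can act on those alleles. No group had Cre without floxed alleles, so effects of Cre and of the loss of Inpp5d cannot be told apart. Whether replicate arrays stem from separate cultures is not stated, so the spread behind the p-values may be technical.

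All 9 of the B lineage markers on the array (among them Cd79a, Igll1 and Pax5) lay above the median of all genes. None passed at a limma adjusted p under 0.05, with log2 differences from -0.065 (Vpreb1) to 0.089 (Blnk). The signal of Inpp5d itself did not fall: its log2 values were 13.20, 13.21 and 13.17 in the controls and 13.37, 13.34 and 13.34 under Cre-ERT2 (difference 0.16 ± 0.0447, SE; limma adjusted p = 0.0926), so groups are named by label; whether its probe set lies in the deleted exons is not known here. Array medians were 8.19 to 8.23 in the controls and 8.24 to 8.37 under Cre-ERT2. Across probe sets, Cre-ERT2 array 3 had a higher correlation with controls 3 and 1 (r = 0.9967 and 0.9963) than with Cre-ERT2 arrays 1 and 2 (0.9938 and 0.9950). Of 10 myeloid markers on the array, 2 were higher under Cre-ERT2 and 0 lower at an adjusted p under 0.05 (0.938% and 1.254% of all genes). The 2 were the lysozyme gene Lyz2 (log2 difference 0.79, adjusted p = 0.0126) and Cebpa, which encodes a myeloid transcription factor (0.27, adjusted p = 0.0470). Cebpa did not pass after quantile normalization (0.115), centring (0.119) or loess (0.0684), and with an array left out it passed only without Cre-ERT2 3. Lyz2 failed without control 1 (0.0632) or Cre-ERT2 1 (0.0763), where 0 myeloid markers passed. The summed linear signal of these markers was 2822 to 2977 in the controls and 3262 to 3520 under Cre-ERT2. In such a sum bright genes weigh most, and 3 of the 10 lay above the median of all genes. Of these 3, Lyz2 rose, while Cd68 and Fcgr3 each differed by -0.11 (limma adjusted p = 0.461 and 0.473). Positive differences were found in 7 of the 10 (62.2% of all genes). In 4 the groups were separate and higher, and in 0 separate and lower (19.9% and 13.8% of all genes). Among these 4 were the dim genes Csf1r (0.17) and Ly6g (0.26), which did not pass (limma adjusted p = 0.118 and 0.111). Of 8 T and NK cell, 5 erythroid and megakaryocyte and 7 stromal markers none passed. An unadjusted p under 0.05 was reached by 3, 0 and 2 of them, and by 5517 of all 19938 genes. Their summed signals were 1161 to 1189, 1159 to 1221 and 1906 to 2022 in the controls. Under Cre-ERT2 these sums were 1208 to 1345, 1214 to 1397 and 2050 to 2352. Of these markers 8, 4 and 4 lay below the median of all genes, where 82.8% of all genes had a positive difference. At or above it, where 41.5% were positive, the 3 stromal markers Col1a1, Col1a2 and Col3a1 differed by 0.13, 0.21 and 0.18 with separate groups. All 7 stromal markers had a positive difference, and 6 were separate and higher (19.9% of all genes). Separate and higher were also 2 T and NK cell and 2 erythroid and megakaryocyte markers. The part of the marker differences in the results below was not tested, and in bulk RNA fewer cells of a type and less RNA per cell cannot be told apart.

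Of the 64 transporter genes, 5 differed between the groups at an adjusted p under 0.05 (limma's moderated test, Benjamini-Hochberg over all genes), 3 lower and 2 higher under Cre-ERT2, and 59 did not pass. The genes that fell were Slc1a4, Slc36a4 and Slc6a9, and those that rose were Slc43a2 and Slc6a14. Among all 19938 genes 437 passed (2.19%), 187 of them higher (0.938%) and 250 lower (1.254%). For the transporters the share was 7.81%. With dim genes left out of the fit, 6 of 50 transporters passed (12.0%, against 7.62% of all genes): Slc6a14 was not tested there, and Slc7a5 and Slc6a17 were added.

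Slc1a4 encodes ASCT1, which exchanges alanine, serine, cysteine and threonine. Its log2 values were 9.71, 9.85 and 9.78 in the controls and 9.16, 9.17 and 9.36 under Cre-ERT2. All 3 values under Cre-ERT2 lay below every control, with Cre-ERT2 3 nearest to them. The fall of 1.47-fold (log2 difference -0.55 ± 0.069, SE; adjusted p = 0.0125) had a 95% interval from -0.71 to -0.39.

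Slc36a4 encodes PAT4, a carrier of proline and tryptophan. Its log2 values were 9.06, 9.09 and 9.03 in the controls and 8.56, 8.48 and 8.79 under Cre-ERT2. The groups did not overlap, the controls were close to each other (SD 0.0296, n = 3), and Cre-ERT2 3 again lay nearest to them (SD under Cre-ERT2 0.165, n = 3). The gene was 1.37-fold lower (log2 difference -0.45 ± 0.0808, SE; adjusted p = 0.0384).

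Slc6a9 encodes GlyT1, a sodium- and chloride-coupled glycine carrier. It read 8.87, 8.96 and 8.84 on the log2 scale in the controls and 8.61, 8.52 and 8.59 under Cre-ERT2. Here Cre-ERT2 3 lay between the other arrays of its group, and the groups were separate. The gene was 1.24-fold lower (log2 difference -0.31 ± 0.0536, SE; adjusted p = 0.0349).

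Slc43a2 encodes LAT4, which lets branched-chain amino acids, phenylalanine and methionine pass without sodium. Its log2 values rose from 10.55, 10.58 and 10.64 in the controls to 10.86, 10.83 and 10.88 under Cre-ERT2. The lowest value under Cre-ERT2 stood above the highest control. The rise was 1.21-fold (log2 difference 0.27 ± 0.0484, SE; adjusted p = 0.0384), and with each array centred on its median the call ended (0.17, adjusted p = 0.138).

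Slc6a14 encodes ATB0,+, a concentrative carrier of neutral and cationic amino acids best known from epithelia. It was the only dim gene among those called, with log2 values of 6.20, 6.18 and 6.4 in the controls and 6.63, 6.70 and 6.62 under Cre-ERT2. The groups did not overlap, although control 3 stood apart from the other controls. The rise of 1.31-fold (log2 difference 0.39 ± 0.0681, SE; adjusted p = 0.0363) did not pass after quantile normalization (0.31, adjusted p = 0.0690).

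The number of transporter genes called depended on the arrays used. Leaving out control 1, 2 or 3 left 0, 0 and 1 of the 5 calls, and leaving out Cre-ERT2 1, 2 or 3 gave 0, 1 and 6. In the same order, calls over all genes went from 437 to 47, 100, 92, 51, 171 and 1511. Without Cre-ERT2 3, the array closest to the controls, all 5 genes passed, together with the serotonin transporter gene Slc6a4. Slc1a4 also passed without Cre-ERT2 2 (adjusted p = 0.0369) and Slc6a14 without control 3 (0.0303). The log2 difference of each of the 5 genes kept its sign in all 6 of these fits, from -0.62 to -0.52 for Slc1a4 and from -0.54 to -0.38 for Slc36a4.

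**Figure D1:**
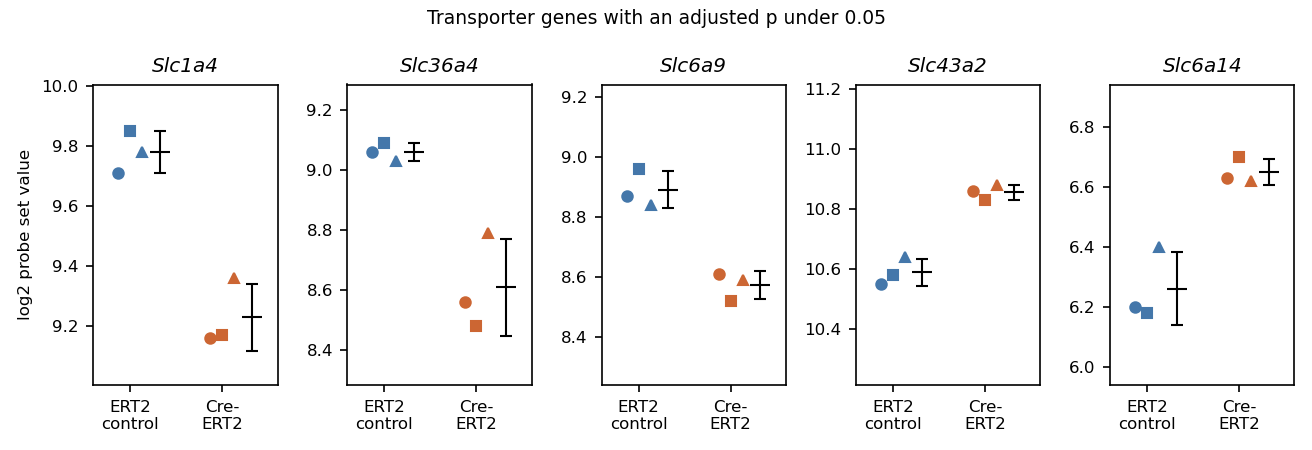
Log2 probe set values of the 5 transporter genes that passed, 1 panel a gene, each spanning 1 log2 unit. Circles, squares and triangles are arrays 1, 2 and 3 of each group, and bars are the mean ± SD (n = 3). In every panel the 3 control arrays and the 3 arrays labelled Cre-ERT2 are separate. For Slc1a4 and Slc36a4 the triangle of Cre-ERT2 3 lies nearest to the controls.

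Promoters are shown for the called genes with a single annotated start, and beside them those of Slc7a11 and Chac1, added after their sequences were seen, because they hold the element by which ATF4 is known to act. Each is the stretch of 250 bases before the start in RefSeq (build GRCm38.p6), read in the direction of the gene, at chr11:20332714-20332963 for Slc1a4 (minus strand), chr9:15709488-15709737 for Slc36a4 (plus), chrX:21714650-21714899 for Slc6a14 (plus), chr3:50443614-50443863 for Slc7a11 (minus) and chr2:119350992-119351241 for Chac1 (plus). Capitals mark matches to TGATGNAAN or TTGCATCA on either strand; the motifs overlap in sequence.
Slc1a4: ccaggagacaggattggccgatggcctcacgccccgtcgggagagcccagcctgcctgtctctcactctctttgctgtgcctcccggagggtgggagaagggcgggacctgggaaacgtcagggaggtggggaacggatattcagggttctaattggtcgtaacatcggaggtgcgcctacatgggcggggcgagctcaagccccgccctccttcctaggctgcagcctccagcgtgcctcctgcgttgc
Slc36a4: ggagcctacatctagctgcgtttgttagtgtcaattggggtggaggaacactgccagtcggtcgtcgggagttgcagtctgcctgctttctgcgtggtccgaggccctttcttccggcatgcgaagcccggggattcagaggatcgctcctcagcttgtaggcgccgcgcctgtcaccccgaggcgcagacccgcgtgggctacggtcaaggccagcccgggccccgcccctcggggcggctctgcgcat
Slc6a14: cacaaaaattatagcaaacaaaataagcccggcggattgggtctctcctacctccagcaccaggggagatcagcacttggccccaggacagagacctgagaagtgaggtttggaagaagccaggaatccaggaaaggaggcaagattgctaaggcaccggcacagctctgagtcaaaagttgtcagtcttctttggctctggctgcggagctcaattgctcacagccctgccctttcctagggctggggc
Slc7a11: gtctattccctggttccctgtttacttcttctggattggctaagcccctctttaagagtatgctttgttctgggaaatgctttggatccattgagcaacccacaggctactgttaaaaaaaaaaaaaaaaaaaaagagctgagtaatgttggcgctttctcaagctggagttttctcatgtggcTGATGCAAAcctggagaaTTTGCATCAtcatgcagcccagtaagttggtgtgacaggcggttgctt
Chac1: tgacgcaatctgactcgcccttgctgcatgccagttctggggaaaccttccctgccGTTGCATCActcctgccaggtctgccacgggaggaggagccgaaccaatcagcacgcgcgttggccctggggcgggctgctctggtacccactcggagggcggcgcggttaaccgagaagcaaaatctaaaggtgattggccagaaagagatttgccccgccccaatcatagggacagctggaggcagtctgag

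Slc7a11 held the element at 66 to 58 and again, inverted, at 48 to 40 bases before its start, and Chac1 held it at 194 to 186. The letters TGATGNAAN occurred in 3.44% of all 32851 windows of this length and TTGCATCA in 0.791%. Of 47 transporter genes with a window (68 windows in all), 3 held the first (Slc6a21, Slc7a11 and Slc7a7) and 2 the second (Slc7a11 and Slc7a7). Counted by window, as in the shares of all windows, 4 of the 68 held the first and 2 the second. None of the 8 windows of the 5 called genes held either, which says only that these letters are not in those stretches.

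Carriers of large neutral amino acids, grouped with the heavy chains, gave 1 rise (Slc43a2) among 8 genes, 0 falls, and 7 that did not pass. The LAT1 gene Slc7a5 came closest. Its log2 values were 13.41, 13.33 and 13.41 in the controls and 13.12, 13.20 and 13.23 under Cre-ERT2, with no overlap between the groups (difference -0.20 ± 0.0532, SE; adjusted p = 0.0840), and it passed with dim genes left out of the fit (adjusted p = 0.0495). Slc3a2, which encodes the CD98 heavy chain that pairs with LAT1, had values of 13.37, 13.33 and 13.38 against 13.26, 13.24 and 13.28. Its groups did not overlap either, but the difference was small (-0.099 ± 0.046, SE; adjusted p = 0.205).

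The other light chains of CD98 did not pass either. Slc7a6, which encodes the cationic and neutral exchanger y+LAT2, had log2 values of 12.35, 12.20 and 12.37 in the controls and 12.09, 12.20 and 12.23 under Cre-ERT2, a difference of -0.13 with overlapping groups (adjusted p = 0.224). Its relative Slc7a7 (y+LAT1) differed by -0.11 (adjusted p = 0.375), and Slc7a8, which encodes the LAT2 light chain, by 0.18 (adjusted p = 0.169). Slc43a1 encodes LAT3, the closest relative of LAT4 in this group. Where Slc43a2 rose, Slc43a1 read 12.02, 12.02 and 12.09 against 12.04, 12.13 and 12.21 (difference 0.080, adjusted p = 0.381), and centring turned its sign (-0.0226); whether the 2 genes differ from each other was not tested. The rBAT heavy chain gene Slc3a1 was dim (0.12, adjusted p = 0.179).

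Among the 7 genes of SLC1, Slc1a4 fell, 0 rose and 6 did not pass. Slc1a5 encodes ASCT2, the glutamine exchanger closest to ASCT1. Its log2 values were 12.71, 12.69 and 12.69 in the controls and 12.50, 12.60 and 12.57 under Cre-ERT2, so that the groups did not overlap, and the difference of -0.14 ± 0.0481 (SE) did not pass (adjusted p = 0.126). The remaining 5, Slc1a1, Slc1a2, Slc1a3, Slc1a6 and Slc1a7, encode glutamate carriers known mainly from brain, retina and epithelia. Their differences ran from -0.012 (Slc1a3) to 0.19 (Slc1a1), with adjusted p from 0.155 to 0.921.

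**Figure D2:**
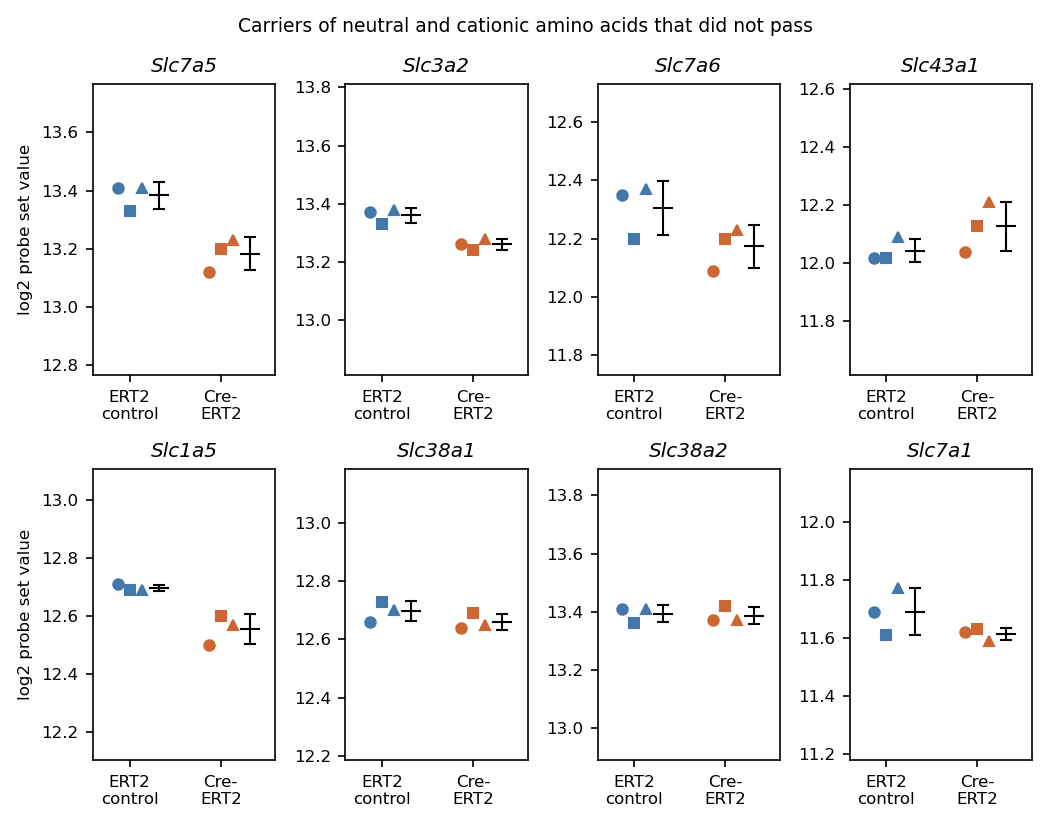
Log2 probe set values of 8 carriers of neutral and cationic amino acids that did not pass, drawn as in the plot of the called genes (circles, squares and triangles for arrays 1, 2 and 3, bars for mean ± SD, n = 3, and 1 log2 unit a panel). Slc7a5, Slc3a2 and Slc1a5 show separate groups with small gaps. In the other 5 the groups overlap, and Slc38a2 has the same mean of 13.39 in both.

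None of the 11 SLC38 genes passed, with adjusted p of at least 0.144. An unadjusted p under 0.05 was reached by 2 of the 11, and by 5517 of all 19938 genes. Slc38a2 encodes SNAT2, the carrier best known for its rise when amino acids are short. Its log2 values were 13.41, 13.36 and 13.41 in the controls and 13.37, 13.42 and 13.37 under Cre-ERT2, so the arrays of both groups were interleaved. The difference of -0.0069 ± 0.0469 (SE) had a 95% interval from -0.11 to 0.10, and its sign turned in 6 other settings. Slc38a1, which encodes the glutamine carrier SNAT1, differed by -0.038 (adjusted p = 0.599) in the probe set chosen by the rule. The second probe set of Slc38a1, singled out after its values were seen, read 10.81, 10.73 and 10.82 in the controls and 10.47, 10.35 and 10.60 under Cre-ERT2. Its groups did not overlap, and the difference of -0.31 ± 0.0695 (SE) missed the threshold in a fit over 21789 probe sets (adjusted p = 0.0647).

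Slc38a9 encodes the arginine sensor that signals to mTORC1, and its log2 values were 10.32, 10.32 and 10.34 in the controls and 10.43, 10.42 and 10.40 under Cre-ERT2. The groups were separate, but the difference of 0.091 ± 0.0444 (SE) did not pass (adjusted p = 0.218) and turned to -0.0115 with centring. The second probe set of Slc38a9 differed by 0.057. Slc38a7, which encodes a glutamine carrier of the lysosome, differed by -0.17 ± 0.0631 (adjusted p = 0.144). Slc36a1 encodes PAT1, a proton-coupled carrier that releases small amino acids from lysosomes. It differed by 0.069 (adjusted p = 0.372; -0.0334 with centring), and of the 4 SLC36 genes Slc36a4 alone passed.

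Cationic carriers (0 of 5 called) and the other light chains (0 of 6 called) did not pass. Slc7a1, which encodes the arginine and lysine carrier CAT1, had log2 values of 11.69, 11.61 and 11.77 against 11.62, 11.63 and 11.59, a difference of -0.077 (adjusted p = 0.365). Slc7a11 encodes xCT, which imports cystine in exchange for glutamate and feeds glutathione synthesis. It was dim, with 6.54, 6.69 and 6.51 in the controls and 6.42, 6.51 and 6.56 under Cre-ERT2 (difference -0.080, 95% interval from -0.23 to 0.07, adjusted p = 0.430). Of these 11 genes 7 lay below the 25th percentile.

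In SLC6, 2 of 11 genes with amino acid cargoes passed, Slc6a9 downward and Slc6a14 upward, and 0 of 5 osmolyte, GABA and creatine carriers and 0 of 3 monoamine carriers passed. Slc6a17, which encodes a vesicular carrier of neutral amino acids in neurons, read 7.95, 7.97 and 8.02 against 8.13, 8.28 and 8.19 (0.22 ± 0.0553, SE; adjusted p = 0.0766). The serotonin transporter gene Slc6a4 read 7.81, 7.87 and 7.87 against 8.09, 8.17 and 7.97 (0.23 ± 0.0624; adjusted p = 0.0903). Groups were separate in both. The largest differences among transporters that did not pass were those of the betaine and GABA carrier gene Slc6a12 (0.25, adjusted p = 0.102) and, outside SLC6, of Slc7a4 (0.25, adjusted p = 0.105). Slc6a6, which encodes the taurine carrier, had values of 11.58, 11.53 and 11.67 against 11.32, 11.46 and 11.48, again without overlap (-0.17 ± 0.0635; adjusted p = 0.137). The creatine carrier gene Slc6a8 differed by 0.15 (adjusted p = 0.176). The genes matched by name alone, Slc7a6os, Slc6a19os and Slc43a3, differed by -0.056, 0.044 and 0.043 and did not pass.

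**Figure D3:**
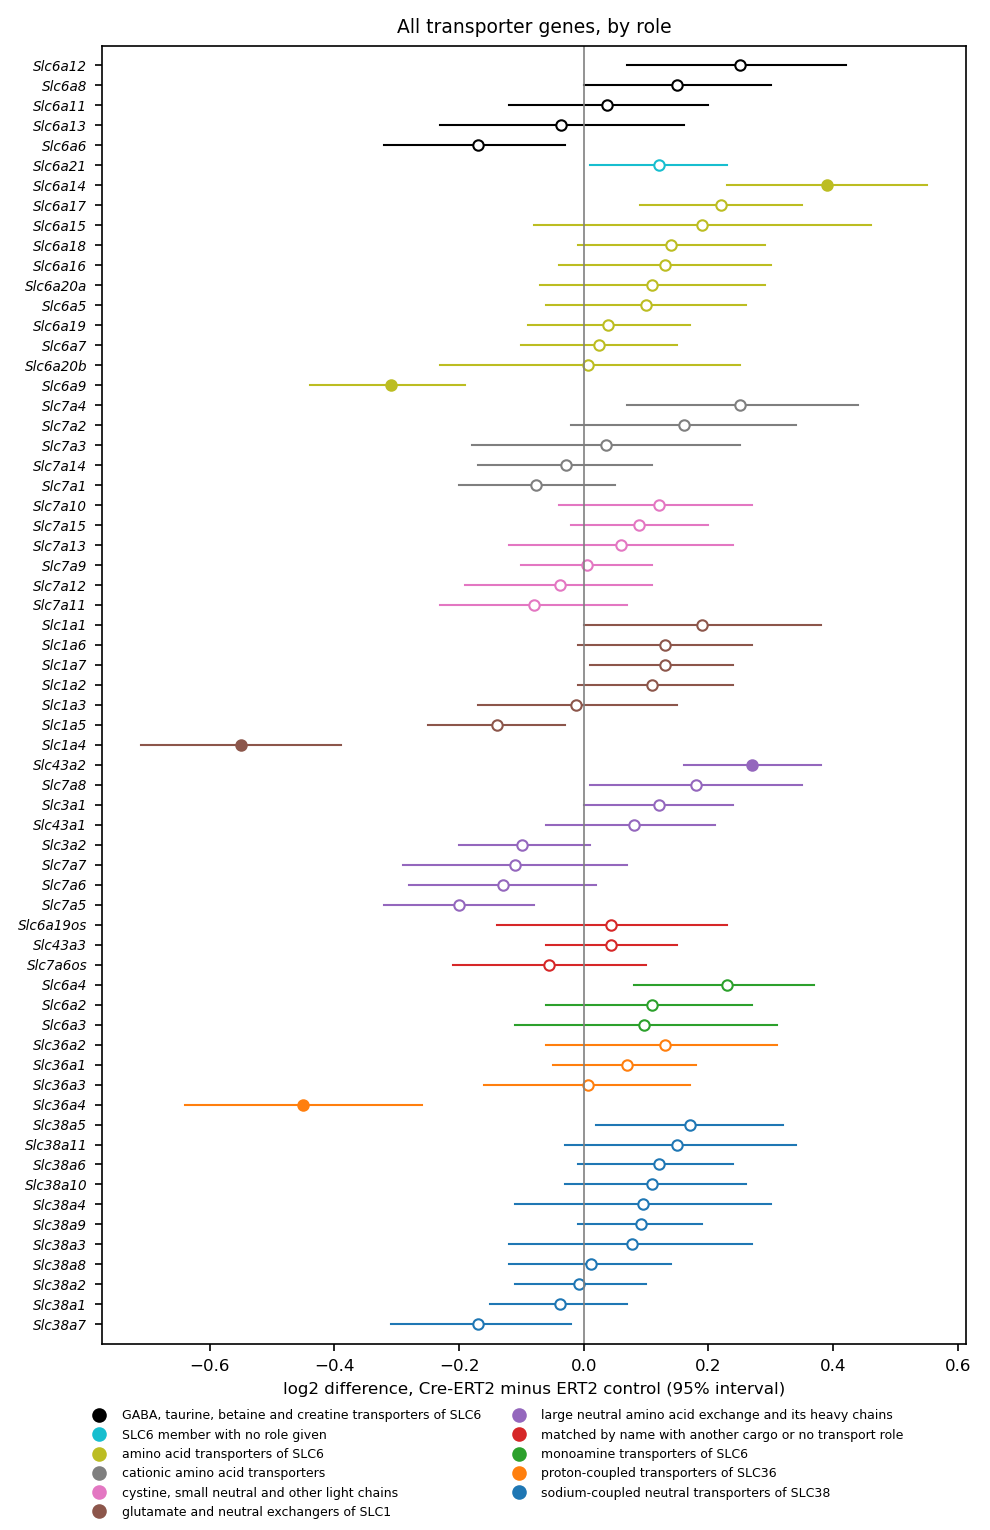
Log2 difference (Cre-ERT2 minus ERT2 control) with its 95% interval for all 64 transporter genes, ordered within role groups by size and coloured by group. Filled points passed at an adjusted p under 0.05 and open points did not. The filled points are Slc6a14 and Slc43a2 to the right of 0 and Slc1a4, Slc36a4 and Slc6a9 to the left.

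The sign of a transporter's difference followed its brightness, as it did for all genes. Of the 43 transporters below the median of all genes, 38 had a positive difference (88.4%, against 82.8% of all genes below that median), with a median of 0.11 against 0.10. Of the 21 at or above it, 7 were positive (33.3%, against 41.5%), with a median of -0.077 against -0.026. In all, 45 of 64 differences were positive, with a median of 0.078 beside 0.043 for all genes. That median fell to -0.006 after quantile normalization, -0.003 after loess and -0.024 with centring, so its sign depended on the scaling. Centring moved the median of all genes from 0.043 to -0.059 and changed the genes called from 187 higher and 250 lower (42.8% higher) to 140 and 1865 (6.98% higher); 7 transporters were then lower and 1 higher.

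With genes cut into 10 bins by brightness, the median difference of a gene's bin was -0.049 for Slc1a4, 0.045 for Slc36a4 and Slc6a9, -0.057 for Slc43a2 and 0.099 for Slc6a14; these genes were called for large differences, so their distance from it is a description. For Slc6a17 it was 0.117 and for Slc6a4 0.116, and after loess their differences were both 0.12. For Slc7a5 and Slc3a2 it was -0.013. Groups did not overlap in 25 transporters, 17 higher and 8 lower, whereas among all genes 19.9% were separate and higher and 13.8% separate and lower. All 8 separate and lower transporters lay at or above the median brightness, as did 2524 of the 2743 separate and lower genes overall.

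**Figure D4:**
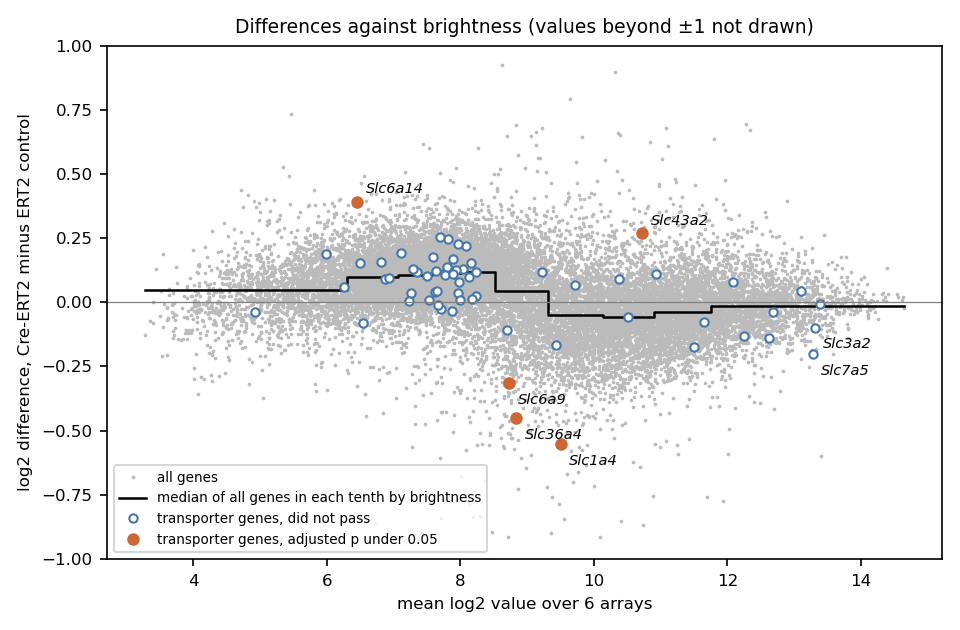
Log2 difference (Cre-ERT2 minus ERT2 control) against the mean log2 value over 6 arrays. Grey dots are all genes, the black line is their median in each of 10 bins by brightness, open circles are transporters that did not pass and filled circles those that did. The line runs from 0.117 in bin 5 to -0.057 in bin 8, and the filled circles are Slc6a14 and Slc43a2 above it and Slc1a4, Slc36a4 and Slc6a9 below it.

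Genes around the transporters were read from lists of related genes, of which the GCN2 and ATF4 response held the most calls. Its 26 genes gave 4 falls, 1 rise and 21 that did not pass (among all genes 1.254% were called lower and 0.938% higher). Their median log2 difference was -0.059, beside 0.043 for all genes. Only 7 of the 26 lay below the median brightness, and all genes at or above it had a median of -0.026. Chac1, which encodes an enzyme that breaks down glutathione, read 10.15, 10.01 and 10.02 in the controls and 9.43, 9.57 and 9.49 under Cre-ERT2, a fall of 1.48-fold (-0.56 ± 0.0617, SE; adjusted p = 0.00795). Asns, which encodes asparagine synthetase, read 12.94, 12.82 and 12.95 against 12.48, 12.50 and 12.48 (-0.42 ± 0.0527; adjusted p = 0.0125). Both were lower in every array labelled Cre-ERT2 than in any control.

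Gpt2, which encodes mitochondrial alanine transaminase, fell by 0.51 on the log2 scale (adjusted p = 0.0131) and Cth, which encodes the enzyme that makes cysteine from cystathionine, by 0.31 (adjusted p = 0.0359). Sesn2, which encodes a leucine sensor that restrains mTORC1, rose by 0.30 (adjusted p = 0.0384; 0.20 and 0.0960 with centring). Atf4 itself differed by -0.12 (adjusted p = 0.165), and Ddit3 and Trib3, its targets under stress, by 0.048 and 0.035. The serine synthesis genes Psat1 and Psph had differences of -0.16 and -0.18 with separate groups and did not pass (adjusted p = 0.0919 and 0.0741), and Phgdh, the first enzyme of that pathway, differed by -0.030 with overlapping groups (adjusted p = 0.770). Without any 1 array the list gave 0 to 1 higher and 1 to 4 lower, and with centring 0 higher and 9 lower. Chac1 passed in all 6 such fits, and Asns failed without control 1 or 3 or Cre-ERT2 1 (adjusted p from 0.0550 to 0.0763). Gpt2 passed only without Cre-ERT2 2 or 3, Sesn2 only without Cre-ERT2 2 or 3, and Cth only without Cre-ERT2 3.

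**Figure D5:**
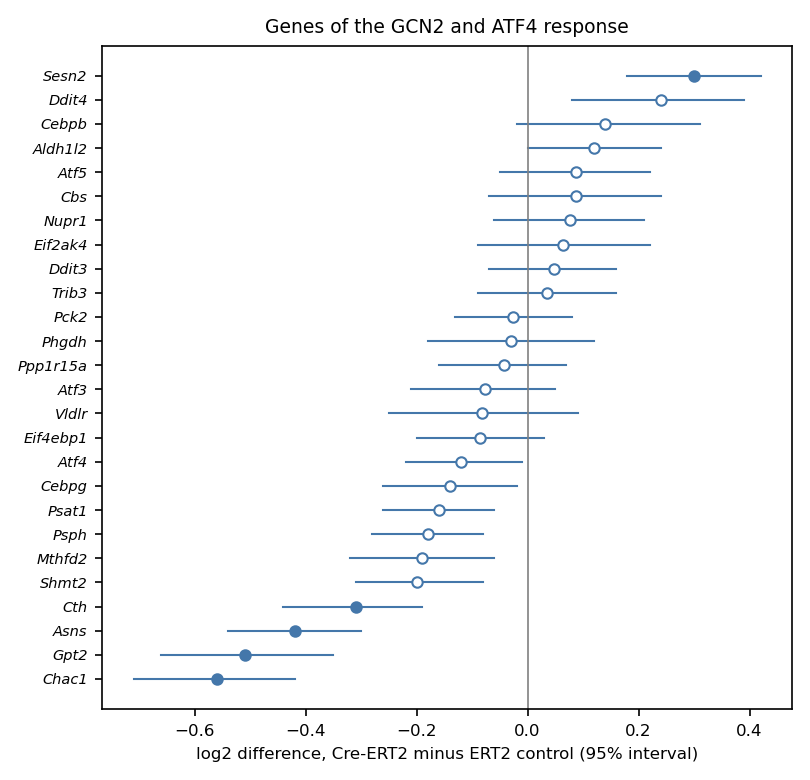
Log2 difference (Cre-ERT2 minus ERT2 control) with its 95% interval for the 26 genes of the GCN2 and ATF4 response, ordered by size. Filled points passed at an adjusted p under 0.05: Chac1, Gpt2, Asns and Cth on the left and Sesn2 on the right. Atf4 lies among the open points at -0.12.

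Of 31 genes of amino acid sensing by mTORC1, 1 was higher (Sesn2, counted above too), 0 lower and 30 did not pass (3.23% called, against 2.19% of all genes). The count changed to 0 higher and 7 lower with centring and to 4 higher and 3 lower with trend and robust moderation. The median of the list was -0.065. Only 2 of the 31 lay below the median brightness, and all genes at or above it had a median of -0.026. The Rag GTPase genes Rraga, Rragb and Rragc had differences of -0.19, -0.25 and -0.27 with separate groups (adjusted p = 0.120, 0.126 and 0.0732), and Rragd differed by -0.094 with overlapping groups (adjusted p = 0.296). In this list 9 genes were separate and lower and 6 separate and higher, among the latter Mtor (0.16) and Sesn3 (0.17). Of all 9969 genes at or above the median brightness, 2524 were separate and lower and 1565 separate and higher. Of 13 glutathione genes Chac1 alone passed (7.69%, counted above too), and the thioredoxin reductase gene Txnrd1 came close (0.26, adjusted p = 0.0517). Of 15 genes of amino acid metabolism, Asns and Gpt2 were lower (13.3%, both counted above too) and 13 did not pass, so these 2 lists added no further call. Among 15 amino acid carriers of other families 2 passed (13.3%). The mitochondrial glutamate carrier gene Slc25a18 rose by 0.34 (adjusted p = 0.0490). The mitochondrial ornithine carrier gene Slc25a15 fell by 0.30 (adjusted p = 0.0499, but 0.0829 after quantile normalization and 0.0523 after loess). Both calls held without Cre-ERT2 3 and with no other array left out. None of 8 partners and regulators of the transporters passed, among them Bsg at 0.0011. The 2 at an unadjusted p under 0.05, a level that 5517 of all 19938 genes reached, went opposite ways. Rnf5 differed by -0.31 (adjusted p = 0.111) and Nedd4l, a ubiquitin ligase that removes carriers from the membrane, by 0.18 (adjusted p = 0.114).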

How the data were processed

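RNA of 6 samples was hybridised to mouse Affymetrix arrays. The deposited values are log2 probe set values; the tools, per the submitters' processing notes, were RMA and Partek 6.5 (order and settings unstated). The build behind the arrays' annotation is unstated here. Values ranged from 2.9 to 14.9 and were used as deposited. Of 35556 probe sets, 21789 carried 1 gene symbol, 1621 several (not used) and 12146 are unnamed here; 21698 were found in RefSeq by Entrez identifier and 0 symbols changed. The highest-mean probe set stood for a gene (2 transporter genes had more than 1). There is no read depth behind array values, so precision rests on 3 arrays a group.

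Groups, from the sample titles, entered 1 model in limma 3.58.1 (R 4.3.3; lmFit, eBayes, 4.06 prior degrees of freedom), two-sided, as Cre-ERT2 minus ERT2 control, over all 19938 genes, with Benjamini-Hochberg adjustment and a threshold of 0.05. SE and 95% intervals are of the moderated fit, SDs of 3 arrays. Text names Inpp5d, called transporters, a fixed core of 14, the 3 nearest to passing, and called members of related lists (up to 4 a list); further genes were chosen after their values were seen. The members and lists were chosen with earlier results of these data known. In simulated data for this comparison (19938 genes) the fit recovered 72% of genes changed by 0.5 and 98% of those changed by 1 (log2), with 5 false calls. Noise was drawn independently for each gene and array, without shifts shared by an array, so these figures do not give the error rate in the real arrays. Same-numbered arrays did not deviate together (r = 0.056, -0.103 and -0.296). Alternatives were filters on dim genes, the mean of all probe sets, quantile, centring and cyclic loess scaling, trend with robust moderation, array weights, a replicate block, each array left out, and stricter thresholds. Tables used Python 3.11.15 and pandas 2.3.3, figures matplotlib 3.10.9.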

Additional observations from a re-analysis of the deposited data

How the results depend on the processing

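The count of 5 transporter genes called (2 higher, 3 lower) was unchanged with the mean of all probe sets or cyclic loess. It became 8 (1 higher, 7 lower) with centring, 8 (2 higher, 6 lower) with trend and robust moderation, 10 (6 higher, 4 lower) with array weights, 3 (1 higher, 2 lower) with a minimum fold change added and 0 (0 higher, 0 lower) at a threshold of 0.01, where 54 genes passed in all. Genes higher numbered 1 after quantile normalization and 1 without genes below the 50th percentile. With an array left out the count ran from 0 to 6 (0 to 3 higher, 0 to 3 lower); such fits have fewer residual degrees of freedom. With the replicate number as a block, 1 transporter was called (Slc1a4, 0 higher, 1 lower) and 64 genes in all; the GCN2 and ATF4 list then gave 0 higher and 0 lower (Chac1 at an adjusted p of 0.0501). The labels pair nothing but the number.

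Over all genes, 437 calls became 1140 and 1563 without genes below the 25th and 50th percentile, 2005 with centring, 1766 with trend and robust moderation, 2041 with array weights and 288 with the minimum change. Single genes were followed for 19 transporters (the called ones, the core and the 3 nearest to passing); 228 of their values under another setting kept direction and side of the threshold, 29 lost the call, 13 gained it and 9 changed sign, none of them in a called gene. Signs turned with centring in Slc36a1 (-0.0334), Slc38a9 (-0.0115) and Slc43a1 (-0.0226). For Slc38a2 they turned after quantile normalization (8.5e-04), after loess (6.41e-05) and without control 1 or 3 or Cre-ERT2 1 or 3; over the 6 arrays left out singly the values ran from -0.0255 to 0.00335. The cause was not tested. Probe-level data were not used here, so background correction could not be varied.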

Other observations

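The array held 300 further genes of the SLC series outside the 7 families. Of these, 5 were higher and 9 lower under Cre-ERT2 (4.67% called, against 2.19% of all genes), with a median log2 difference of 0.060. Slc25a18 and Slc25a15, counted above, are among those called. The 300 genes were examined after the data were seen. The largest fall was that of Slc39a8, which encodes the zinc and manganese importer ZIP8, from 9.14 ± 0.0376 (SD, n = 3) in the controls to 8.60 ± 0.0168 (limma adjusted p = 0.00320), and it passed in all 6 fits with an array left out. Slc16a3, which encodes the lactate exporter MCT4, fell by 0.49 (limma adjusted p = 0.00496) and also passed in 6 of 6. The glucose transporter genes Slc2a3 and Slc2a1 fell by 0.46 and 0.25 on the log2 scale (limma adjusted p = 0.0306 and 0.0482), the urea transporter gene Slc14a1 by 0.41 (0.0125) and the copper importer gene Slc31a1 by 0.38 (0.0477). Slc39a4, which encodes another zinc importer, ZIP4, rose by 0.33 (adjusted p = 0.0333), and the sodium and proton exchanger genes Slc9a9 and Slc9b2 rose by 0.35 and 0.34 (both 0.0472). The largest rise among those called was that of Slc17a8 (0.38, limma adjusted p = 0.0385). It did not pass after quantile normalization (0.087) or loess (0.0688). Slc17a9 and Slc37a4 fell by 0.30 and 0.28 (limma adjusted p = 0.0415 and 0.047). Slc39a4 did not pass after quantile normalization (0.116), centring (0.0707) or loess (0.0698), Slc9b2 not after quantile normalization (0.0709), and Slc2a1 not after quantile normalization (0.0563) or loess (0.0651). Slc2a1 passed in no fit with an array left out. Slc2a3, Slc31a1, Slc39a4, Slc9a9, Slc9b2, Slc17a9 and Slc37a4 passed in 1 of 6, Slc17a8 in 2 of 6 and Slc14a1 in 3 of 6.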
